A study of Mus musculus with 7 samples.

Results

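The receptor of oncostatin M and the signalling chain that it shares with interleukin 6 (IL-6), leukaemia inhibitory factor (LIF), IL-11 and, from the Janus kinases onwards, IL-22 were examined in sorted mouse Paneth cells (PCs). The set held 10 genes out of 55414 Ensembl identifiers in the count table: the receptor chains Osmr, Il6st, Il6ra, Lifr, Il11ra1 and Il22ra1, the Janus kinases Jak1 and Jak2, the transcription factor Stat3 and its feedback inhibitor Socs3. These genes were taken by name, and the names had been selected on their measured log2 changes and CPM between the groups of this experiment. Their levels and changes are therefore a description, and no p-value is given for them.

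PCs, the granulated cells at the base of small intestinal crypts, had been sorted from C57BL/6J mice at 15 h after an injection of either tumour necrosis factor (TNF) or phosphate-buffered saline (PBS). No genetic change is named in either group, so treatment is the labelled difference between them. There were 3 PBS and 4 TNF libraries, which the series description assigns to separate animals, and they held between 15511455 and 19193721 counts each. The sources used here give no age, sex, TNF dose or sorting antibodies.

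Gp130, encoded by Il6st, has no ligand specificity of its own. It pairs with the oncostatin M receptor, with the LIF receptor or with itself when IL-6 or IL-11 is held by its own alpha chain, and the bound Janus kinases then phosphorylate STAT3, which enters the nucleus and switches on Socs3, whose product in turn blocks gp130 and the kinases. In the gut epithelium, STAT3 activated by IL-22 or by gp130 cytokines is known for driving antimicrobial lectins and wound repair.

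STAT dimers bind the palindrome TTCNNNGAA, and this motif was searched on both strands in the 250 bases before each RefSeq gene start (RefSeq windows for GRCm38.p6, placed on GRCm39 by exact match). It lay in 2306 of 32851 windows (7.02%) over all genes. Of the 12 windows of the 10 genes, 1 held it, that of Socs3. In the lists of known STAT3 targets and of IL-6 and IL-22 induced genes described further on, 3 of 23 windows (13%) and 4 of 18 windows (22.2%) held it. The sites below are shown because they lie before the starts of strongly changed genes of the pathway, with the motif in capitals and the strand of the gene, followed by a site of Bcl6, which was not a differentially expressed gene (DEG) although 4 motif sites lay before its starts. A match describes the letters only and not binding.
Socs3, chr11:117860328-117860356, minus strand: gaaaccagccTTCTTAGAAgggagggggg
Icam1, chr9:20927184-20927212, plus strand: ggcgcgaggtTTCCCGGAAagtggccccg
Reg3b, chr6:78347729-78347757, plus strand: agcctgttctTTCTTGGAAactctttgag
Steap4, chr5:8010346-8010374, plus strand: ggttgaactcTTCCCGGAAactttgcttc
Fga, chr3:82933216-82933244, plus strand: aggcccccatTTCCTGGAAtgtagattcc
Bcl6, chr16:23800103-23800131, minus strand: atcgactacgTTCCGGGAAtgagagggct
The Icam1 motif lay nearest to its start, at 42 to 34 bases before it, and the Socs3 motif lay at 154 to 146 bases before the start. These distances are to RefSeq starts. The gene spans of the GENCODE annotation, which gave the coordinates printed for the 10 genes, begin earlier for Socs3, Icam1, Reg3b, Steap4 and Bcl6, so that the sites of these genes lie within those spans. The consensus site of NF-kB, the factor through which TNF acts most directly, was in 1281 of all windows (3.9%), in 0 of the 12 windows of the 10 genes, in 4 of 23 windows (17.4%) of the STAT3 target list and in 2 of 18 windows (11.1%) of the IL-6 and IL-22 induced list. None of the STAT sites printed here overlapped an NF-kB match.

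The 10 genes did not move in one direction, and neither did the receptor chains among them. After TNF, Osmr went from nearly undetected to abundant, Il6st, Jak2, Stat3 and Socs3 rose by at least 2-fold, Il22ra1 and Jak1 rose by less, Lifr and Il11ra1 fell, and Il6ra kept overlapping values. All 10 passed the low-count filter, Osmr only through its TNF libraries. With edgeR, 9 of the 10 were DEGs, 7 higher and 2 lower, against 59.6% of all tested genes (29.5% higher and 30.1% lower). The CPM values (reads of a gene scaled to a library of 1000000) were separate between the groups for 9 of the 10, against 60.7% of all tested genes (29.9% higher and 30.9% lower), and 6 of the 10 were DEGs with a change of at least 2-fold, against 31.6%. The median log2 change was 0.95 for the set and 0.00 over all tested genes. Nothing is read from these counts, since the contrast had served to pick the genes. In bulk RNA, a change in the number of cells that express a gene and a change in RNA per cell cannot be told apart.

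**Figure D1:**
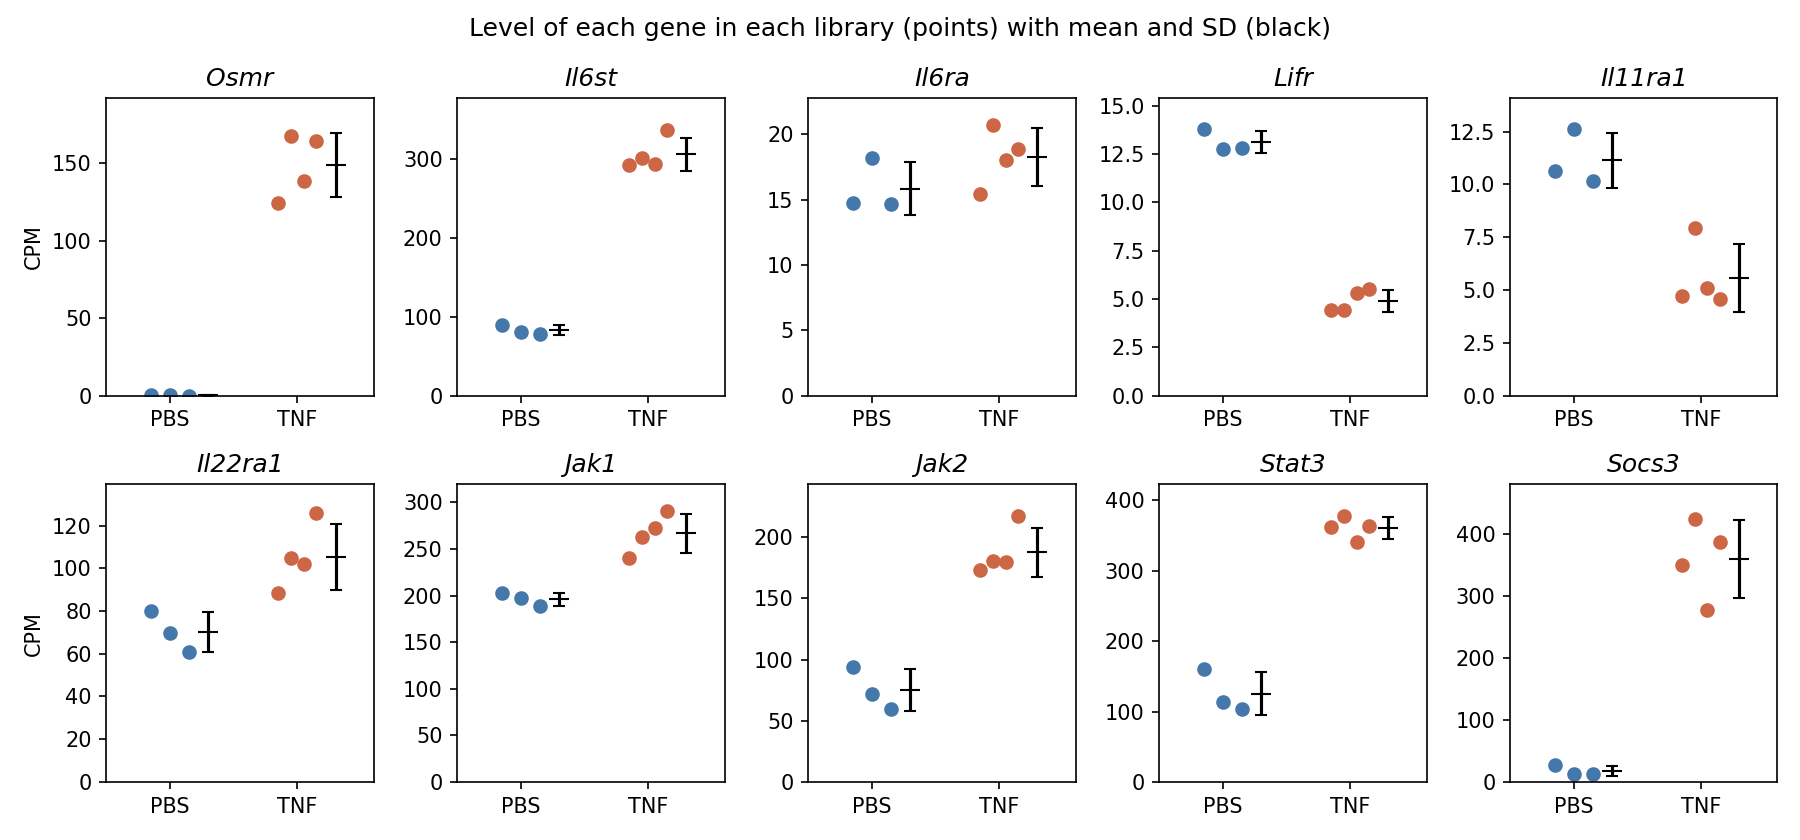
CPM of the 10 genes, 1 panel per gene with its own linear axis from 0, with a point for each PBS (n = 3) and TNF (n = 4) library and the mean and SD in black. Osmr moves from 0.305 CPM or less in the PBS libraries to 125 CPM or more in the TNF libraries, Lifr and Il11ra1 shift down, and the Il6ra points of the groups overlap.

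Osmr (ENSMUSG00000022146, GRCm39 chromosome 15, 6843053 to 6904450) encodes the chain that joins gp130 to bind oncostatin M, and it also pairs with the product of Il31ra in the IL-31 receptor. It was at 0.247, 0.305 and 0 CPM in PBS replicates 1 to 3 and at 125, 168, 139 and 164 CPM in TNF replicates 1 to 4. Every TNF library lay far above every PBS library, and the PBS values rested on 10 counts in all against 10173 counts after TNF. Means were 0.184 ± 0.162 CPM for PBS (SD, n = 3) and 149 ± 20.7 CPM for TNF (SD, n = 4), and the log2 change was 9.61 ± 0.32 (SE). That was the 16th largest rise among 14329 tested genes. Because so few counts stand behind the PBS level, the size of the fold is less certain than its direction: leaving out PBS replicate 2 gave a log2 change of 10.26, and leaving out PBS replicate 3 gave 9.02.

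Il6st (ENSMUSG00000021756, chromosome 13, 112600604 to 112646620), the shared gp130 chain, was already present after PBS, at 90.0, 80.6 and 78.0 CPM. After TNF it was at 293, 302, 294 and 337 CPM, with no overlap. The means were 82.9 ± 6.3 CPM (SD, n = 3) and 306 ± 20.7 CPM (SD, n = 4), and the log2 change was 1.89 ± 0.11 (SE). This shared chain thus rose by 3.7-fold.

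Lifr (ENSMUSG00000054263, chromosome 15, 7120095 to 7226970), the chain that pairs with gp130 for LIF, moved the other way. It was at 13.8, 12.7 and 12.8 CPM after PBS and at 4.42, 4.42, 5.30 and 5.50 CPM after TNF. All TNF libraries lay below all PBS libraries, and the log2 change was -1.42 ± 0.18 (SE), or 2.67-fold lower. Osmr and Lifr are related genes on the same chromosome, yet the order of their levels switched: per kb of transcript, Osmr was at 0.0434 or less of the Lifr level in every PBS library and at 47.4 to 68.7 times that level in the TNF libraries. Exons of Lifr overlap an unnamed gene on the opposite strand over 11.1% of their length, and strand use in counting is not known.

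The alpha chains for IL-6 and IL-11 did not follow gp130. Il6ra (ENSMUSG00000027947, chromosome 3, 89771366 to 89820719) was at 14.7, 18.2 and 14.6 CPM after PBS and at 15.4, 20.7, 18.05 and 18.8 CPM after TNF. Its groups overlapped, and its log2 change was 0.20 ± 0.15 (SE). Il11ra1 (ENSMUSG00000073889, chromosome 4, 41699989 to 41769485) was at 10.6, 12.6 and 10.2 CPM after PBS and at 4.70, 7.96, 5.09 and 4.58 CPM after TNF, a change of 1.996-fold downwards (SE 0.23 on the log2 scale) without overlap. TNF replicate 2 stood above the other TNF libraries for Il11ra1. The Il11ra1 values are uncertain, since 16.9% of its 75-base stretches also occur in the near-identical genes Il11ra2 or Il11ra3.

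Il22ra1 (ENSMUSG00000037157, chromosome 4, 135455428 to 135479451) encodes the epithelial chain of the IL-22 receptor, which signals through STAT3 without gp130. It was at 79.9, 69.9 and 60.9 CPM after PBS and at 88.3, 105, 102 and 126 CPM after TNF. The groups did not overlap, but the gap between PBS replicate 1 and TNF replicate 1 was smaller than the range within either group. The log2 change was 0.58 ± 0.13 (SE), or 1.5-fold.

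Set against gp130 within each library and per kb of transcript, the receptor chains changed place. Osmr was at 0.00434, 0.00598 and 0 of the Il6st level in the PBS libraries and at 0.672, 0.876, 0.746 and 0.770 of it in the TNF libraries. Lifr went from 0.134 to 0.144 of the Il6st level after PBS to 0.0128 to 0.0158 after TNF, and Il6ra from 0.164 to 0.226 to 0.053 to 0.069. After TNF, the oncostatin M chain was thus the only one of these 3 partners near the level of gp130 mRNA.

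**Figure D2:**
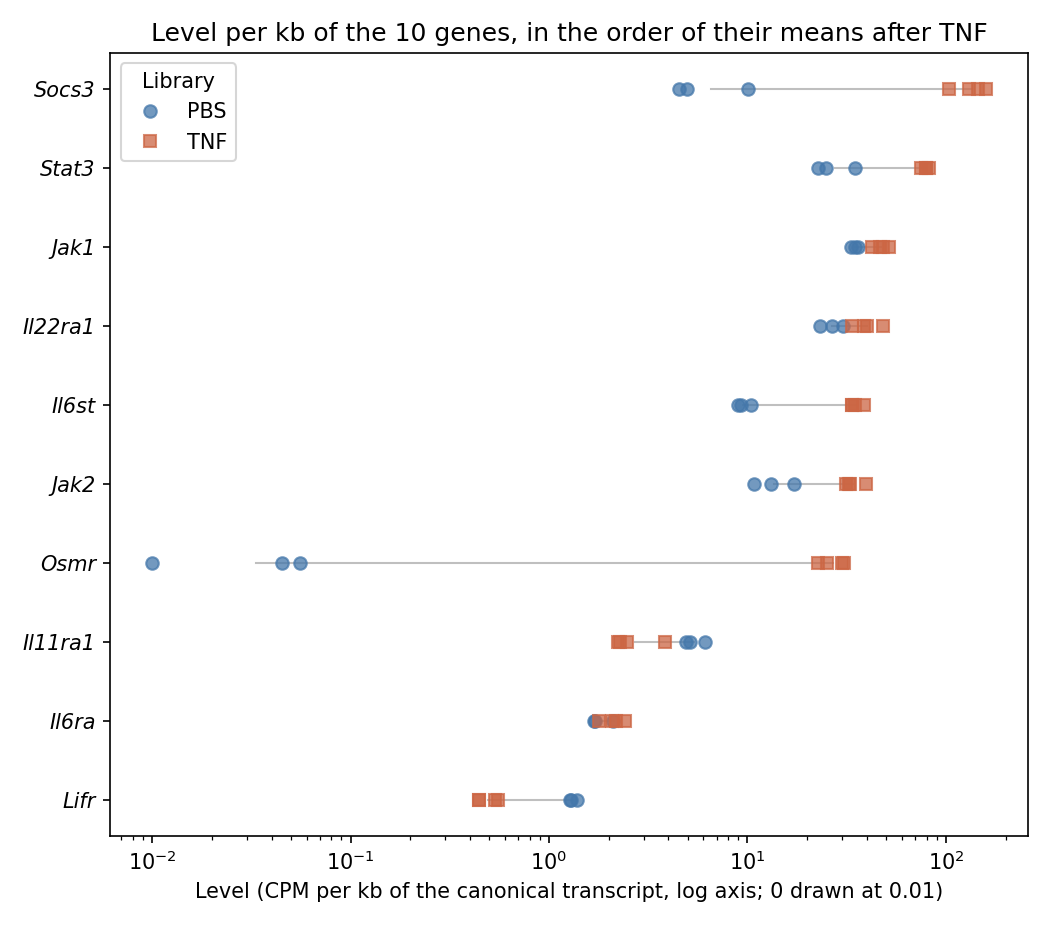
Level of each of the 10 genes in CPM per kb of the canonical transcript on a log axis (0 drawn at 0.01), with circles for PBS libraries, squares for TNF libraries and a grey line between the group means. Osmr has the lowest mean after PBS, 0.0335, and after TNF its mean of 27.1 sits next to Jak2 and Il6st, while the TNF means of Il11ra1, Il6ra and Lifr are 2.7 or less.

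Both Janus kinases rose. Jak1 (ENSMUSG00000028530, chromosome 4, 101008838 to 101122487), the kinase that gp130 signalling depends on most, was at 203, 197 and 188 CPM after PBS and at 241, 263, 273 and 291 CPM after TNF, a log2 change of 0.44 ± 0.10 (SE). Jak2 (ENSMUSG00000024789, chromosome 19, 29228677 to 29290505) was at 93.9, 72.1 and 59.7 CPM after PBS and at 173, 181, 180 and 217 CPM after TNF, a log2 change of 1.32 ± 0.15 (SE). Neither kinase had overlapping groups. Jak2 changed by 2.5-fold and Jak1 by 1.36-fold, and exons of Jak1 overlap Raver2 on the opposite strand over 18% of their length.

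Stat3 (ENSMUSG00000004040, chromosome 11, 100775924 to 100830450) was at 159.8, 113 and 104 CPM after PBS and at 361, 377, 341 and 363 CPM after TNF. The TNF libraries lay close together, at 361 ± 15.1 CPM (SD, n = 4), while the PBS libraries spread more, at 126 ± 30.1 CPM (SD, n = 3). The log2 change was 1.52 ± 0.14 (SE), or 2.87-fold. Socs3 (ENSMUSG00000053113, chromosome 11, 117856905 to 117860898) was at 26.9, 13.2 and 11.98 CPM after PBS and at 349, 423, 277 and 386 CPM after TNF. It rose by 20.7-fold, a log2 change of 4.37 ± 0.31 (SE), the 200th largest rise. Genes on the opposite strand overlap 11.8% of the exon length of Socs3 and 6.89% of that of Stat3. Within the set, only Osmr rose more than Socs3.

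PBS replicate 1 was the highest PBS library for Jak2, Stat3, Socs3, Il22ra1, Il6st and Jak1, which rose after TNF, and also for Lifr, which fell. Osmr, Il6ra and Il11ra1 were highest in PBS replicate 2 instead. The lectin genes Reg3b and Reg3g, picked after their values were seen, were also highest in PBS replicate 1. They were at 255, 151 and 78.5 CPM and at 1330, 767 and 531 CPM in PBS replicates 1 to 3. Icam1, a gene of the STAT3 target list, was lowest in PBS replicate 1. Without that library, the same number of genes of the set were DEGs, 9 of 10, beside 8041 of 14878 tested genes.

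Levels can be compared between genes per kb of the canonical transcript. After PBS the order was Jak1, Stat3, Il22ra1, Jak2, Il6st, Socs3, Il11ra1, Il6ra, Lifr and Osmr, from 34.8 down to 0.0335 CPM per kb. Neighbours with overlapping libraries were Jak1 and Stat3, Stat3 and Il22ra1, Il6st and Socs3, and Socs3 and Il11ra1. After TNF the order was Socs3, Stat3, Jak1, Il22ra1, Il6st, Jak2, Osmr, Il11ra1, Il6ra and Lifr, from 135 down to 0.494 CPM per kb, and Jak1, Il22ra1, Il6st and Jak2 each overlapped the next of these 4, as did Il11ra1 and Il6ra. The order depends on the length used: with all annotated exons of each gene joined, Il22ra1 led after PBS at 26.8 CPM per kb and Jak1 followed at 18.1 CPM per kb.

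**Figure D3:**
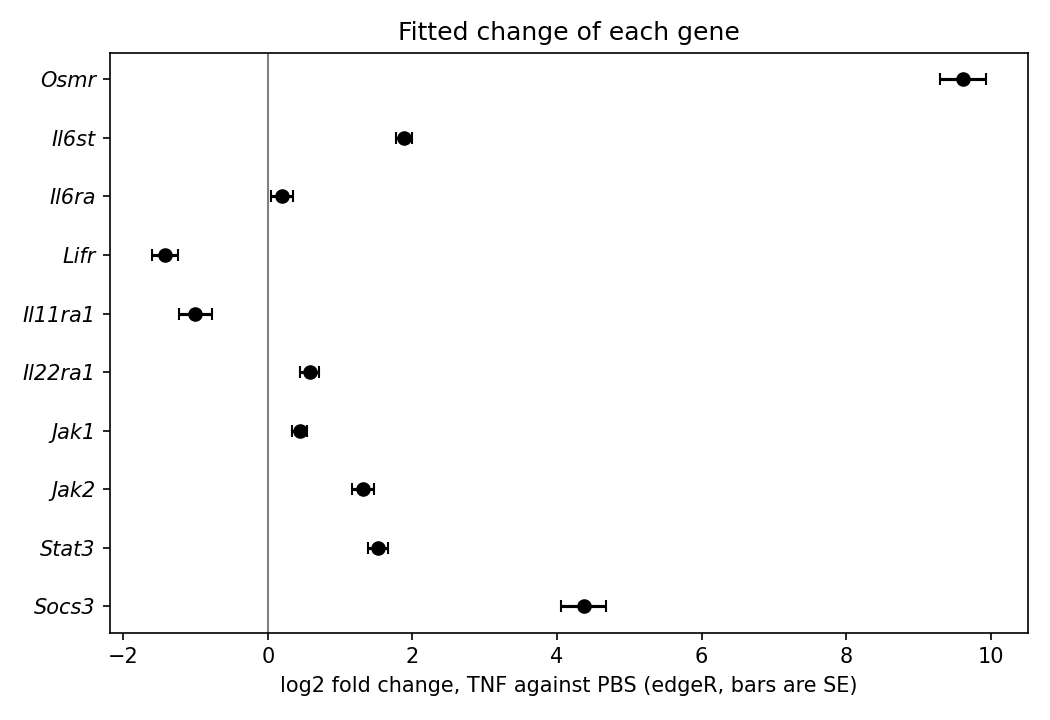
Fitted log2 change (TNF against PBS) of the 10 genes (points) with its standard error (bars), on a linear axis and ordered by role. Osmr at 9.61 and Socs3 at 4.37 lie apart from Il6st, Stat3 and Jak2 (1.32 to 1.89), and Lifr and Il11ra1 lie to the left of 0.

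The ligands of these receptors were mostly absent from the sorted cells. Of 15 ligand genes, 5 could be tested, 2 rose and 1 fell, with a median log2 change of 0.03 (59.6% of all tested genes were DEGs), and with total-count scaling 1 rose and 1 fell. Osm itself had 0 counts in every library, as did Il22, Il27, Ctf2, Il31 and Il24. A count of 0 allows up to 0.153 to 0.196 CPM, depending on the library, and covers counting error only. Il6 had 4 counts, all in TNF replicate 2. Lif was the ligand that the PCs did express: it was at 5.32, 6.52 and 6.10 CPM after PBS and at 23.1, 29.0, 22.3 and 23.2 CPM after TNF, a log2 change of 2.02 ± 0.16 (SE, edgeR adjusted p = 1.71e-07). Its own receptor chain Lifr thus fell in the same libraries in which Lif rose. Clcf1, a neurotrophic ligand of the family, rose by 1.83 ± 0.66 (SE) on 18 counts after PBS and 83 counts after TNF. It passed the low-count filter only through its TNF libraries, so its call is not taken as support for the rise. Clcf1 was no DEG when PBS replicate 1 or 2 or TNF replicate 1 or 3 was left out (adjusted p = 0.0762, 0.111, 0.0654 and 0.0508).

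Of 13 other receptor chains of the family, 2 could be tested and 1 rose (29.5% of all tested genes rose). Il20rb, which joins with Il22ra1 to bind IL-20 and IL-24, was at 2.47, 1.37 and 2.92 CPM after PBS and at 15.3, 14.0, 9.42 and 14.1 CPM after TNF, a log2 change of 2.55 ± 0.28 (SE, edgeR adjusted p = 3.22e-06). Il10rb, the second chain of the IL-22 receptor, was at 40.5, 41.9 and 28.1 CPM after PBS and at 36.5, 39.5, 38.1 and 47.8 CPM after TNF, with overlapping groups (log2 change 0.14 ± 0.15 SE, edgeR adjusted p = 0.446). Another gene on the same strand overlaps 27.9% of the Il10rb exon length. The chains Il11ra2, Cntfr, Il31ra, Il10ra, Il20ra and Csf3r had 0 counts in every library. The leptin receptor gene Lepr had 0 counts after PBS and 31 after TNF, at least 8.21-fold higher against a floor of 3 counts over the PBS group (at least 5.26-fold without PBS replicate 2), and was below the filter.

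Of the 8 other Janus kinases and STATs, 7 were tested, 3 rose and 1 fell, with a median log2 change of 0.20, and 59.6% of all tested genes were DEGs. With total-count scaling, 2 rose and 2 fell. Tyk2, the third kinase of gp130 complexes, was at 48.1, 48.8 and 46.6 CPM after PBS and at 23.7, 26.5, 21.0 and 19.8 CPM after TNF. It had a log2 change of -1.07 ± 0.12 (SE, edgeR adjusted p = 4.47e-06), so that Jak2 and Tyk2 moved in opposite directions. Stat2, which acts in the interferon pathway, rose by 1.25 ± 0.14 (SE, edgeR adjusted p = 3.52e-06) and Jak3, with 16.3% of its exon length overlapping other genes, rose by 0.75 ± 0.20 (SE, edgeR adjusted p = 0.00489). Stat5a rose by 0.52 ± 0.17 (SE, edgeR adjusted p = 0.0162), a call that was lost when libraries were scaled by total counts (adjusted p = 0.232) or without PBS replicate 1, PBS replicate 2 or TNF replicate 3 (adjusted p = 0.0623, 0.0735 and 0.0521).

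Of the 16 other negative regulators, all were tested, 9 rose and 2 fell, with a median log2 change of 0.35, where 59.6% of all tested genes were DEGs (29.5% higher and 30.1% lower). Scaling by total counts gave 5 higher and 3 lower in this list, and the replicate number as a block gave 6 higher and 2 lower. Socs1, the inhibitor best known for the interferon receptors, was at 1.61, 2.09 and 1.54 CPM after PBS and at 13.5, 16.4, 12.6 and 14.4 CPM after TNF, a log2 change of 3.02 ± 0.22 (SE, edgeR adjusted p = 6.52e-08). Cish rose by 1.39 ± 0.22 (SE, edgeR adjusted p = 8.31e-05), and Ptpn2, a phosphatase of Janus kinases and STATs, rose by 0.98 ± 0.13 (SE, edgeR adjusted p = 1.47e-05). Of the exon length of Cish, 26.3% overlaps genes on the opposite strand, and of that of Socs1, 12.4%. Within the SOCS family, Socs5 went the other way, at 16.4 ± 1.79 CPM after PBS (SD, n = 3) and 3.95 ± 1.03 CPM after TNF (SD, n = 4), with a log2 change of -2.06 ± 0.22 (SE, edgeR adjusted p = 2.15e-06). Ptpn6, which encodes the phosphatase SHP-1, was at 84.1, 131 and 79.4 CPM after PBS and at 56.8, 30.6, 54.8 and 25.2 CPM after TNF (log2 change -1.23 ± 0.33 SE, edgeR adjusted p = 0.0126). The tuft cell marker Dclk1 had its highest PBS value and its lowest TNF value in the same libraries as Ptpn6, PBS replicate 2 at 858 CPM and TNF replicate 4 at 77.4 CPM, and all 9 tuft cell markers were lower after TNF. Their part in the Ptpn6 result was not tested.

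Phosphorylated gp130 also recruits the adaptors of the Ras, MAPK and PI3K pathways. Of these 13 genes, all were tested, 6 rose and 5 fell, with a median log2 change of 0.19, beside 29.5% higher and 30.1% lower among all tested genes. The docking proteins split: Gab2 rose by 1.49 ± 0.10 (SE, edgeR adjusted p = 4.1e-08), and Gab1 had a log2 change of -1.01 ± 0.15 (SE, edgeR adjusted p = 4.06e-05). The adaptor gene Grb2 rose by 1.03 ± 0.10 (SE, edgeR adjusted p = 7.45e-07) and the GTPase gene Hras by 0.86 ± 0.12 (SE, edgeR adjusted p = 2.18e-05). Pik3r1, the regulatory subunit of PI3K, fell by 0.88 ± 0.10 (SE, edgeR adjusted p = 6.43e-06) and Yes1, a Src family kinase that gp130 activates, fell by 0.74 ± 0.10 (SE, edgeR adjusted p = 2.85e-05).

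Known STAT3 target genes moved unevenly. Of 21, 18 were tested, 11 rose and 2 fell, with a median log2 change of 1.23, while 59.6% of all tested genes were DEGs, 29.5% higher and 30.1% lower. Like the other lists, this one was assembled with results of these data known, so its direction is not independent evidence. Their summed level went from 727 to 767 CPM in the PBS libraries to 2237 to 2566 CPM in the TNF libraries. The adhesion molecule gene Icam1, which is also a classical NF-kB target, was at 0.494, 0.509 and 0.848 CPM after PBS and at 271, 310, 260 and 320 CPM after TNF, a log2 change of 8.85 ± 0.20 (SE). It passed the low-count filter only through its TNF libraries, so no p-value is given for it, and it is counted among the 11 that rose. Cebpd, a transcription factor of the acute phase response, rose by 4.79 ± 0.20 (SE, edgeR adjusted p = 9.02e-10) and the hypoxia factor gene Hif1a by 2.94 ± 0.12 (SE, edgeR adjusted p = 2.93e-10). The genes that fell belong to cell division: Birc5 had a log2 change of -1.50 ± 0.22 (SE, edgeR adjusted p = 5.82e-05) and Ccnd1 one of -0.79 ± 0.12 (SE, edgeR adjusted p = 5.35e-05). Another gene on the opposite strand overlaps 48.4% of the Ccnd1 exon length, and such overlaps cover 15% of Cebpd and 10.3% of Icam1. All 6 tested stem cell markers were lower after TNF as well, and their sum went from 2664 to 3816 CPM to 1057 to 1698 CPM. Their part in the lower Birc5, Ccnd1, Lifr and Il11ra1 values was not tested. Bcl6, Fos, Myc, Vegfa and Ptgs2 were not DEGs. The groups of Bcl6 overlapped, at 8.59 to 15.8 CPM after PBS and 7.72 to 13.3 CPM after TNF.

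Of 22 genes known to be induced by IL-6 or IL-22 in epithelia and liver, 19 were tested, 16 rose and none fell (29.5% higher and 30.1% lower over all tested genes), with a median log2 change of 5.53, and their summed level went from 700 to 1699 CPM in the PBS libraries to 36029 to 53944 CPM in the TNF libraries. This list had been assembled with results of these data known, so its direction is not independent evidence. Lcn2, which encodes a protein that withholds iron from bacteria and is also an NF-kB target, was at 0.366 ± 0.279 CPM after PBS (SD, n = 3) and 363 ± 46.9 CPM after TNF (SD, n = 4), a log2 change of 9.87 ± 0.30 (SE). It passed the low-count filter only through its TNF libraries, so no p-value is given for it. Lrg1 rose by 8.42 ± 0.20 (SE, edgeR adjusted p = 5.46e-12), with 64.9% of its exon length overlapping another gene on the opposite strand. S100a9, a calprotectin subunit, had 0 counts after PBS and 399 after TNF, at least 106-fold higher. It passed the low-count filter only through its TNF libraries, so no p-value is given for it. Like Lcn2, it is counted among the 16 that rose. Without PBS replicate 2 the bound was at least 67.7-fold. Saa1, Hp and Hpx were not DEGs, and Saa2, Fgg and S100a8 were below the filter. Of these, S100a8, the other calprotectin subunit, had 0 counts after PBS and 32 after TNF, at least 8.48-fold higher against the same floor (at least 5.43-fold without PBS replicate 2).

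**Figure D4:**
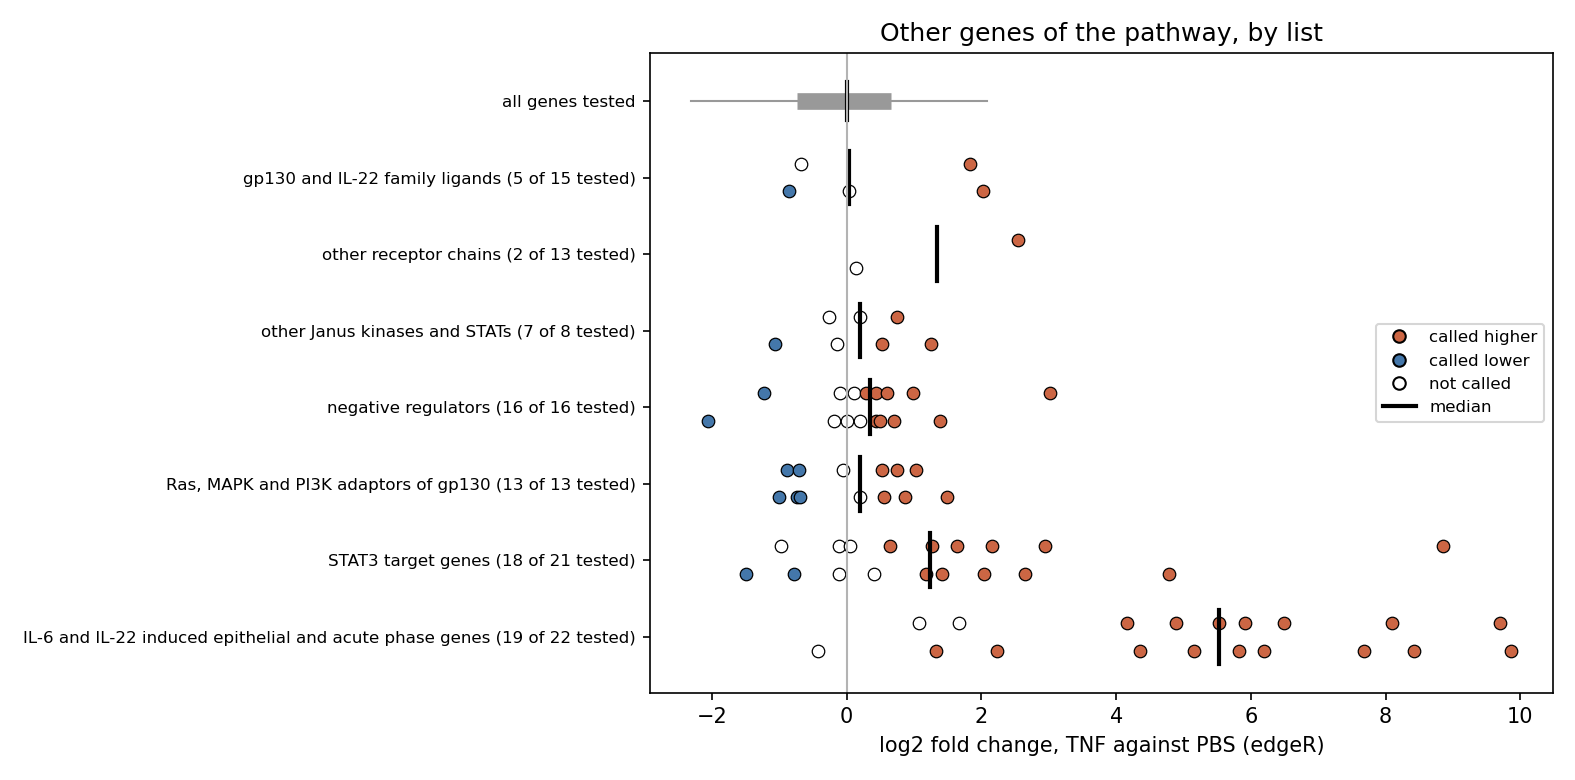
Fitted log2 change (TNF against PBS) of every tested gene of each pathway list, 1 point a gene, filled where it was a DEG, with the median of each list as a black bar and, in the top row, all tested genes with a line from the 5th to the 95th percentile and a box from the 25th to the 75th. Most IL-6 and IL-22 induced genes lie far to the right (median 5.53), while ligands, other kinases and adaptors lie around 0 on both sides. S100a9, with 0 counts after PBS, is drawn at its fitted value, which is no bound.

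The genes whose pattern was most like that of Osmr were Lrfn4, Ppp2ca, Sertad1, Zc3hav1 and Arl8a, with a Pearson r of log2 CPM of 0.9998, 0.9995, 0.9992, 0.9992 and 0.9991 over the 7 libraries. The libraries form 2 groups, so r mostly follows the difference between the groups: 423 of 12358 tested protein-coding genes had an r over 0.99. The changes of these 5 genes were far smaller than that of Osmr, with log2 changes of 0.81 to 2.41.

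The sorted cells matched their label, since PC markers summed to 169916 to 279425 CPM after PBS and to 180543 to 333213 CPM after TNF. Of the 11 PC markers, 4 rose and 3 fell, beside 29.5% higher and 30.1% lower among all tested genes. Other epithelial markers were present too, with goblet cell markers at 11300 to 20705 and 9440 to 10976 CPM tuft cell markers at 1681 to 2785 and 349 to 879 CPM, enterocyte markers at 396 to 542 and 94.4 to 118 CPM, and enteroendocrine markers at 29.9 to 100.4 and 23.5 to 32.5 CPM. Stromal markers summed to 1.85 to 2.19 CPM after PBS and to 0.177 to 1.57 CPM after TNF, with Col1a2 and Lum at 0 in every library. Endothelial markers summed to 5.30 to 11.2 CPM after PBS and 9.62 to 12.3 CPM after TNF with Kdr at 0, and leukocyte markers to 28.9 to 38.3 and 43.7 to 59.0 CPM with Cd3e and Nkg7 at 0. The part of these cell types in the values of the 10 genes was not tested. Of the leukocyte list, Cd14 rose, with 4.22 ± 0.776 CPM after PBS (SD, n = 3) and 30.2 ± 2.26 CPM after TNF (SD, n = 4), and Ptprc, which marks all leukocytes, fell by edgeR although its groups overlapped, at 11.4, 26.2 and 11.6 CPM after PBS and 7.28, 6.25, 12.7 and 7.72 CPM after TNF.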

How the data were processed

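The values are raw counts as the authors deposited them, whole numbers of reads per Ensembl gene, with 1 column for each of 7 libraries (3 PBS, 4 TNF). The submitters' processing notes name FastQC, Trimmomatic 0.39, STAR 2.7.10a and DESeq2, and both mm10 and mm39, without saying which step used which. The counting program, its settings and its use of strand: not given in the sources used here. Symbols and coordinates were taken by identifier from GENCODE M39 (GRCm39), which held 54749 of 55414 identifiers (98.8%).

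For TNF against PBS, edgeR 4.0.16 (in R 4.3.3) was run with its quasi-likelihood F test (robust, two-sided, filterByExpr, TMM), with Benjamini-Hochberg adjustment over all 14329 tested genes. DEGs had an adjusted p under 0.05. CPM used TMM-scaled library sizes, and between genes it was divided by the canonical transcript length. Each pair of libraries in a group differed beyond sampling noise (chi-square per degree of freedom at least 15.7). Same-numbered libraries did not deviate together, so numbers were not taken as pairs.

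The 10 genes and all lists were chosen with earlier results of these data known. Named were the 10 genes, in each list up to 3 DEGs with the largest rise and 3 with the largest fall at 1 CPM or more in one group, members of counts of 5 or fewer, and the 5 genes most like Osmr. Reg3b, Reg3g and the genes with printed motif sites, and others outside this rule, were chosen after their values were seen. Some genes of the lists that this rule names are not reported here. Alternatives were DESeq2, other scalings, other filters, a 2-fold requirement, replicate numbers as a block, and each library left out.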

Additional observations from a re-analysis of the deposited data

Results flagged for a closer look

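Of 59 values examined for a TNF library apart from the other 3, by its distance to the nearest library divided by the range of the 4, 3 passed the Dixon limit, and chance alone passes about 1 in 20. Il11ra1 after TNF had a ratio of 0.85, with TNF replicate 2 at 7.96 CPM. Lif after TNF had a ratio of 0.858, with the same library highest at 29.0 CPM. The summed erythroid markers had a ratio of 1, since the counts in that library (0.236 CPM) were the only ones in the group. With 3 libraries, PBS values were not examined in this way.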

How the results depend on the processing

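The 10 genes held 9 DEGs, 7 higher and 2 lower, under the 13 alternatives in scaling, filter, test, block and left-out library, and 6 DEGs when a change of at least 2-fold was required, and the log2 change of Osmr ran from 9.02 to 10.26. Requiring a 2-fold change left 4530 of 8543 DEGs. With the replicate number as a block, 7131 genes were DEGs and 1 of the ligands in place of 3. The pairs did not deviate together (correlations of -0.30, -0.03 and -0.17). Leaving out single libraries gave 1 to 3 ligand DEGs. Without the low-count filter and with DESeq2, 2 of the other receptor chains were DEGs, as Lepr was added (adjusted p = 0.00255 without the filter). Scaling by total counts moved the median of all genes to -0.16 and gave 3142 higher and 4614 lower DEGs, 40.5% higher in place of 49.5%, and Clcf1 was then lost (adjusted p = 0.0636). Ptpn6 was lost without the filter (adjusted p = 0.0641). No direction reversed in these alternatives: 531 values of named genes kept their call and 14 lost it, while 112 counts (both directions summed) stayed within 1.5 times and 6 did not. Few counts limit Osmr and Lcn2 after PBS.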
